A study of Mus musculus with 8 samples.

Results

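The miR-17 to miR-92a cluster is a set of 6 microRNA (miRNA) hairpins cut from a single noncoding transcript. It was followed here through its 7 mature miRNAs that were chosen by name: mmu-miR-17-5p, mmu-miR-17-3p, mmu-miR-18a-5p, mmu-miR-19a-3p, mmu-miR-20a-5p, mmu-miR-19b-3p and mmu-miR-92a-3p, written below without the mouse prefix mmu. They are 7 of the 1978 mature miRNAs in a table of small RNA counts from splenic CD8+ T cells, and 7 of 7 had enough counts to be tested. The cells came from C57BL/6 mice, an inbred strain, either neonatal and 5 to 7 days old (n = 4 libraries) or adult and 12 weeks old (n = 4 libraries). No genetic change or drug treatment is named for either group. CD8+ cells were enriched from spleen suspensions with magnetic beads. The labels do not say whether the libraries of a group came from separate animals, so p-values measure the spread between these libraries, which may be technical.

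A miRNA is loaded into an Argonaute protein and guides it to messenger RNAs that pair with its seed, bases 2 to 8 from the 5′ end, which are then repressed. The cluster is best known as a driver of lymphocyte growth and survival, and miR-17 and miR-20a repress the pro-apoptotic gene Bim. Its transcription is activated by Myc and E2F factors in proliferating cells. Mammals carry paralogous copies in the miR-106a to miR-363 and the miR-106b to miR-25 clusters.

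The mature sequences, from RefSeq (GRCm38.p6), are shown with the seed in capitals because the seed sets the families by which the results are ordered.
mmu-miR-17-5p: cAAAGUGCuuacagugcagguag
mmu-miR-20a-5p: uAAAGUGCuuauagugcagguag
mmu-miR-18a-5p: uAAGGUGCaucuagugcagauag
mmu-miR-19a-3p: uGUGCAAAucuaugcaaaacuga
mmu-miR-19b-3p: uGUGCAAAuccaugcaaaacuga
mmu-miR-92a-3p: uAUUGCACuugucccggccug
mmu-miR-17-3p: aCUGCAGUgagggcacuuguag
miR-17-5p and miR-20a-5p share a seed and differ at 2 positions (C1U and C12U, counted from the 5′ end of miR-17-5p). The seed of miR-18a-5p departs from theirs at A4G. miR-19a-3p and miR-19b-3p share a seed and differ by U11C, counted from the 5′ end of miR-19a-3p. miR-92a-3p has a seed of its own within the cluster, and miR-17-3p is the opposite arm of the miR-17 hairpin.

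The 6 hairpins lie within 836 bases of mouse chromosome 14, at 115043671 to 115044506 on the plus strand (mm10, the GRCm38 assembly). Their order is mir-17, mir-18a, mir-19a, mir-20a, mir-19b-1 and mir-92a-1. In the GENCODE gene annotation all 6 are in exon 2 of the long noncoding RNA gene Mir17hg (115042879 to 115046727). RefSeq starts that gene inside the cluster. miR-19b-3p and miR-92a-3p are also made from a second hairpin each, on the minus strand of chromosome X. These are mir-19b-2 (52741983 to 52742066) and mir-92a-2 (52741838 to 52741928) of the miR-106a to miR-363 cluster. Values below are summed over both precursors unless a row is named.

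Members of the cluster did not move together between the ages. On the TMM scale explained below, miR-17-5p and miR-18a-5p rose in neonatal cells, by 1.49-fold and 3.03-fold. miR-19a-3p, miR-19b-3p and miR-17-3p fell, to 0.491, 0.430 and 0.694 times the adult level, though library totals turned miR-17-3p above 0 without a call. miR-20a-5p and miR-92a-3p did not pass the test. Levels are given in CPM, counts scaled to a common library total, with library sizes adjusted by TMM, a trimmed mean of the ratios between libraries. Tests were edgeR's quasi-likelihood test on all miRNAs with enough counts, called at a Benjamini-Hochberg adjusted p under 0.05. The members' 2 rises and 3 falls stand against a background of 375 miRNAs tested, of which 63.2% were called, 29.1% as higher and 34.1% as lower in neonatal libraries. The share of called members is thus near that of all miRNAs. The members' median log2 fold change was -0.41, against -0.05 over the 375.

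Libraries held 1281033 to 2606637 counts. A count of 0 allows up to 3 counts, for counting error alone. TMM factors differed between the ages, at 1.16 to 1.30 for neonatal libraries and 0.788 to 0.812 for adult ones. Scaling by library totals instead moved log2 fold changes up by 0.626 on average. Under totals miR-17-5p (1.20), miR-18a-5p (2.21) and miR-20a-5p (0.68) passed as higher and miR-19b-3p (-0.60) as lower. miR-19a-3p (-0.41) was then lower without passing, and miR-17-3p (0.10) and miR-92a-3p (0.23) turned above 0 without passing. Totals called 67.7% of the 375, 49.6% as higher and 18.1% as lower. In bulk samples, fewer cells that hold a miRNA and less of it per cell cannot be told apart.

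The miR-17 seed is carried by miR-17-5p and miR-20a-5p. mmu-miR-17-5p, the first miRNA of the transcript, stood at 1619, 2004, 1673 and 2289 CPM in neonatal libraries 1 to 4, against 1151, 1338, 1272 and 1329 CPM in adult libraries 1 to 4. The ages did not overlap, and the log2 fold change of neonatal over adult was 0.58 ± 0.15 (SE; edgeR's adjusted p = 0.00432). mmu-miR-20a-5p, which shares most of that sequence, stood at 2792, 3859, 3139 and 5606 CPM in neonatal libraries, against 2744, 4198, 3556 and 4242 CPM in adult libraries. Here the ages overlapped, with neonatal library 4 above the other libraries. The log2 fold change was 0.06 ± 0.22, with a 95% interval from -0.41 to 0.54 (edgeR's adjusted p = 0.808). Its sign turned to -0.08 without neonatal library 4 and to -0.11 without adult library 1.

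mmu-miR-18a-5p, the second miRNA, whose hairpin is known to need the RNA-binding protein hnRNP A1 for efficient cropping in human cells, rose most among the members. mmu-miR-18a-5p stood at 24.6, 48.5, 42.3 and 72.2 CPM in neonatal libraries and 11.7, 14.7, 17.6 and 17.1 CPM in adult libraries. All 4 neonatal libraries were above the adult ones, although the lowest neonatal value was much closer to the adult range than the others. The log2 fold change was 1.60 ± 0.31 (SE; edgeR's adjusted p = 0.000701). It rests on few counts, 46 to 201.5 in neonatal libraries, against 12 to 37 in adult libraries. The opposite arm, miR-18a-3p, was also higher in neonatal libraries, at 76.5 to 109 CPM, against 37.1 to 59.2 CPM in adult libraries. Its log2 fold change was 1.04 ± 0.20 (SE; edgeR's adjusted p = 0.000691). The arms did not track each other among neonatal libraries: library 4 was highest for miR-18a-5p (72.2 CPM) and lowest for miR-18a-3p (76.5 CPM).

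Both miR-19 members fell. Their sequences differ by U11C alone, and the deposited counts of miR-19a-3p were whole numbers in 2 of the 8 libraries. Whether the counts of miR-19a-3p and miR-19b-3p share reads was not tested. mmu-miR-19b-3p stood at 291.9, 418.9, 312.8 and 520.7 CPM in neonatal libraries and 688.5, 1044, 781.1 and 1078 CPM in adult libraries, with no overlap. Its log2 fold change was -1.22 ± 0.21 (SE; edgeR's adjusted p = 0.000317). mmu-miR-19a-3p stood at 61.4, 88.5, 58.8 and 124 CPM in neonatal libraries and 86.4, 244.3, 128.8 and 219.8 CPM in adult libraries. Neonatal libraries 2 and 4 were above adult library 1, so the ages overlapped. Its log2 fold change was -1.03 ± 0.33 (SE; edgeR's adjusted p = 0.0149). This call was lost without neonatal library 1 (-0.87, edgeR's adjusted p = 0.0567) or adult library 4 (-0.88, edgeR's adjusted p = 0.0584), and once GC content entered as an offset (-0.58, adjusted p = 0.0668 by edgeR). With the GC offset and the replicate number as a block the call was kept (-0.54, adjusted p = 0.0119 by edgeR). That block assumes that equal numbers pair the samples, which the labels do not state.

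miR-92a-3p, the last miRNA of the transcript, made up most of the cluster's counts. mmu-miR-92a-3p stood at 101600, 83240, 97080 and 63010 CPM in neonatal libraries and 150100, 83730, 122900 and 101600 CPM in adult libraries. The ages overlapped, and the log2 fold change was -0.41 ± 0.20 with a 95% interval from -0.83 to 0.01 (edgeR's adjusted p = 0.0853). In both ages libraries 1 and 3 were higher than libraries 2 and 4, a split whose source the labels do not name. The split ran the other way, with libraries 2 and 4 higher in both ages, for miR-17-5p, miR-20a-5p, miR-19a-3p and miR-19b-3p. For miR-17-3p and miR-18a-5p libraries 2 and 4 were higher in neonatal libraries only. With the replicate number as a block, on the same unstated pairing, miR-92a-3p passed as lower (-0.40 ± 0.12, edgeR's adjusted p = 0.00574). It also passed once GC content entered as an offset (-0.74, adjusted p = 0.0014 by edgeR). Within libraries 1 and 3 alone it stood at -0.33, and within libraries 2 and 4 alone at -0.37, a split chosen after the levels had been seen, so these are given without a test. With library totals its sign turned (0.23).

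mmu-miR-17-3p, the lesser arm of the first hairpin, stood at 44.3, 52.6, 46.2 and 68.7 CPM in neonatal libraries and 58.3, 90.3, 79.4 and 76.8 CPM in adult libraries. Neonatal library 4 was above adult library 1, so the ages overlapped. The log2 fold change of -0.53 ± 0.21 passed narrowly (SE; edgeR's adjusted p = 0.0419). The call was lost with RLE scaling (-0.42, edgeR's adjusted p = 0.0934) and when any of 6 of the 8 libraries was left out (neonatal 1, 2 or 3, or adult 2, 3 or 4), at -0.41 to -0.50. Of the 7 members, 3 had no overlap between the ages, against 57.3% of all miRNAs tested.

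**Figure D1:**
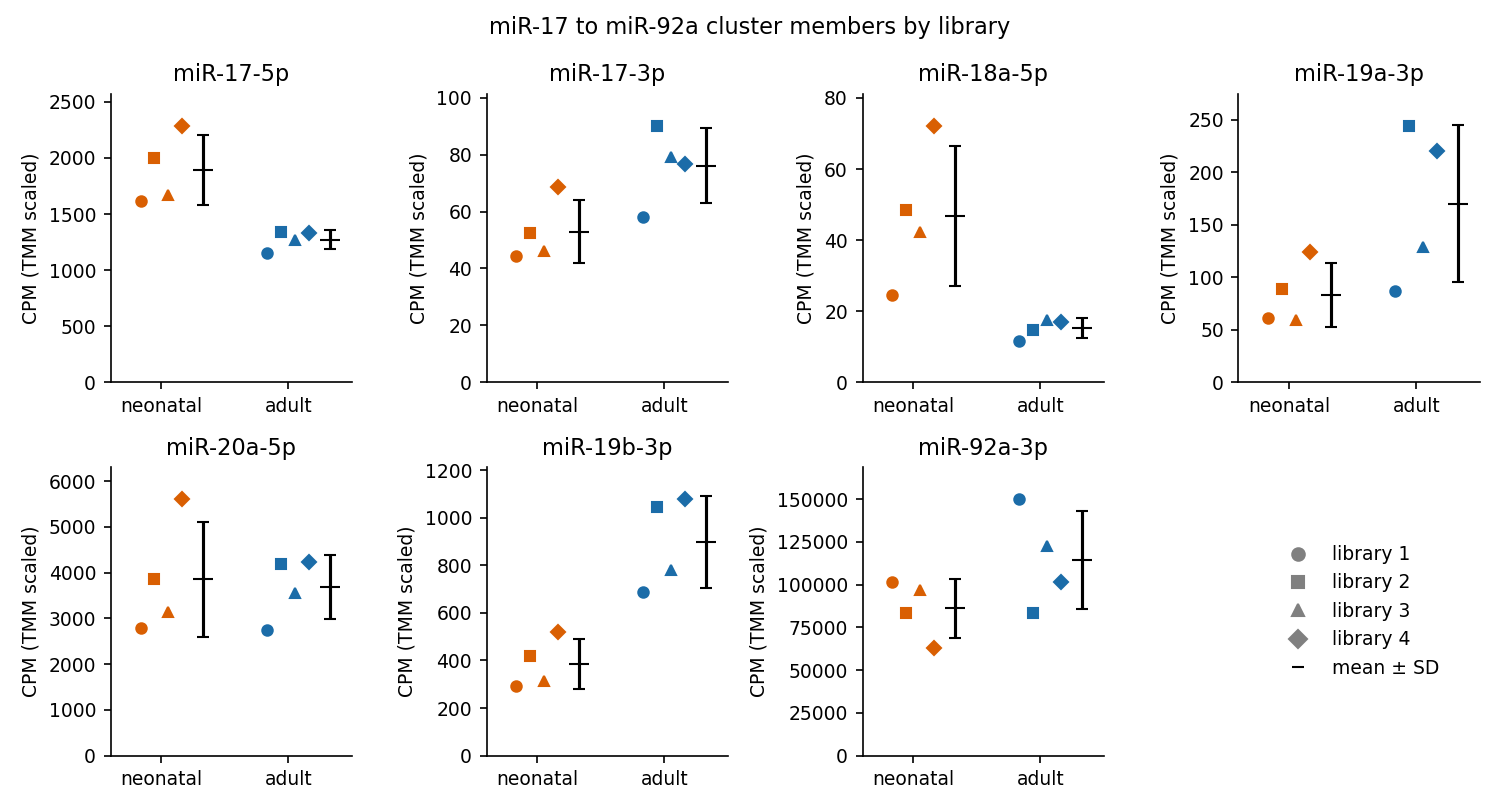
Levels of the 7 members in CPM (TMM-scaled), with each panel on its own linear axis from 0, 1 point per library and the mean ± SD beside the 4 libraries of each age. Neonatal libraries lie above adult ones for miR-17-5p and miR-18a-5p and below them for miR-19b-3p, while the ages overlap for the other 4.

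Read along the transcript, the hairpins differed in direction on the TMM scale. miR-17-5p and miR-18a-5p were higher in neonatal cells, miR-19a-3p was lower, miR-20a-5p was near 0, miR-19b-3p was lower and miR-92a-3p was below 0 without passing (above it with library totals). The GC content of the mature miRNA was 47.8% in miR-17-5p and 43.5% in miR-18a-5p, which rose. It was 34.8% in miR-19a-3p, 39.1% in miR-19b-3p and 54.5% in miR-17-3p, which fell, and 39.1% in miR-20a-5p and 57.1% in miR-92a-3p, which did not pass.

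**Figure D2:**
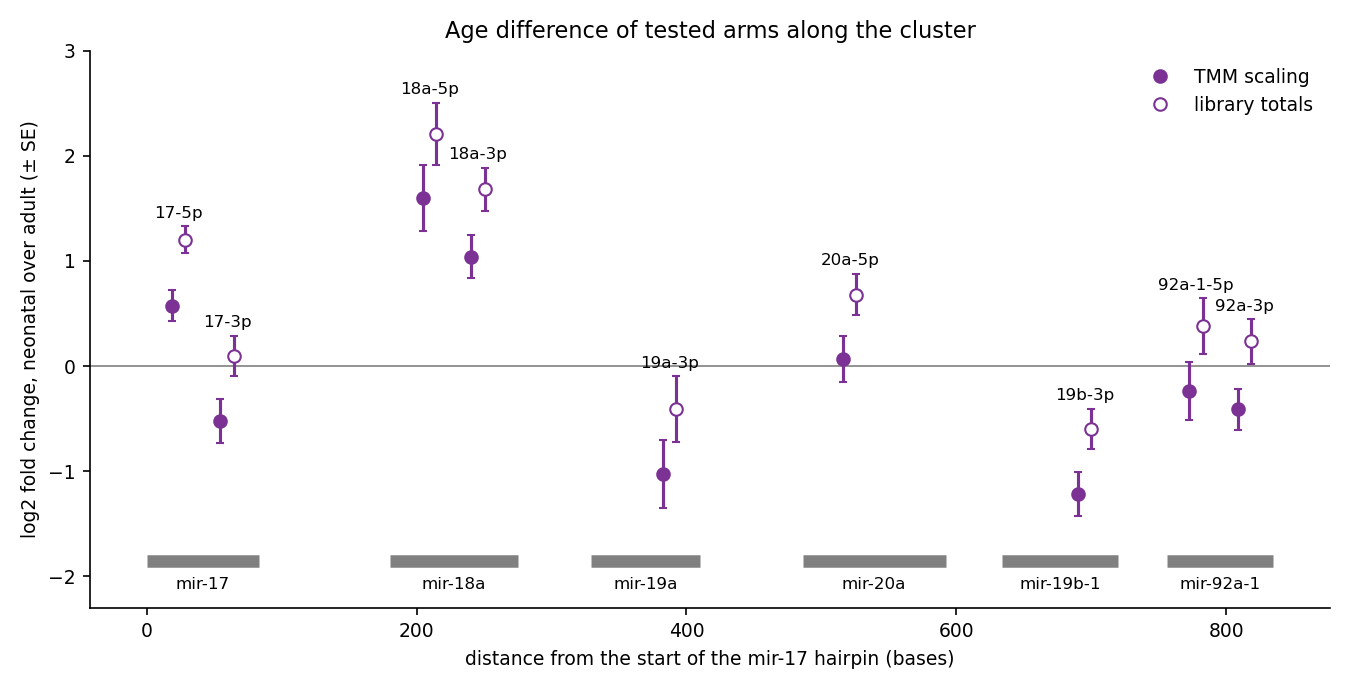
Log2 fold change of neonatal over adult (± SE) for each tested arm of the cluster, against the distance in bases from the start of the mir-17 hairpin, with filled points for TMM scaling and open points for library totals. Grey bars are the hairpins, the value of miR-19b-3p and miR-92a-3p includes their second precursor, and miR-18a-5p (1.60) and miR-19b-3p (-1.22) are the extremes on the TMM scale.

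Hairpins of 1 transcript can be set against each other inside each library, where the scaling between libraries drops out. The counts of miR-19b-3p and miR-92a-3p also include their chromosome X precursors, so their ratios are not within 1 transcript alone. The reference of every ratio, miR-17-5p, differs by U10A alone from miR-106a-5p of chromosome X. Whether miR-17-5p and miR-106a-5p share reads was not tested. Adapter ligation in the library kit favours some sequences, so a ratio of 2 miRNAs does not give their molar ratio. Comparing such a ratio between libraries assumes that this preference is the same in each library, which was not tested. The count of miR-19b-3p was 18.0%, 20.9%, 18.7% and 22.7% of the miR-17-5p count in neonatal libraries, against 59.8%, 78.0%, 61.4% and 81.2% in adult libraries. The neonatal values lie far below the adult ones, with a mean of 20.1% (SD 2.15%) against 70.1% (SD 11.0%). The log2 difference was -1.79 ± 0.14 (SE; limma's adjusted p = 2.19e-06), a ratio 3.47-fold higher in adult libraries. That of miR-19a-3p was 3.52% to 5.44% in neonatal libraries, against 7.51% to 18.2% in adult libraries, a log2 difference of -1.54 ± 0.29 (SE; limma's adjusted p = 0.000822).

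The ratio of miR-18a-5p to miR-17-5p moved the other way. It was 1.52%, 2.42%, 2.53% and 3.16% in neonatal libraries, against 1.01%, 1.10%, 1.38% and 1.28% in adult libraries, with no overlap. The log2 difference was 0.95 ± 0.25 (SE; limma's adjusted p = 0.00671). Within libraries 1 and 3 alone it stood at 0.70, a split chosen after the levels had been seen, so no call is read from it. Beside miR-17-5p, miR-18a-5p was thus higher in neonatal libraries, and miR-19a-3p and miR-19b-3p were lower.

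The other members were lower beside miR-17-5p in neonatal libraries. The count of miR-20a-5p was 1.72, 1.93, 1.88 and 2.45 times that of miR-17-5p in neonatal libraries, against 2.38, 3.14, 2.80 and 3.19 times in adult libraries, where neonatal library 4 just exceeded adult library 1. The log2 difference was -0.53 ± 0.14 (SE; limma's adjusted p = 0.00791). miR-92a-3p was 27.5 to 62.8 times miR-17-5p in neonatal and 62.6 to 130.4 times in adult libraries, a log2 difference of -0.96 ± 0.29 (SE; limma's adjusted p = 0.0139) with overlap between the ages. All 6 ratios to miR-17-5p were called by limma, 5 as lower and 1 as higher, against a background of 374 ratios of which 65.5% were called, 50% as lower and 15.5% as higher. The median log2 difference over those 374 was -0.61, so a fall of about that size beside miR-17-5p was common. By an exact two-sided permutation test over the 70 divisions of the libraries, 4 of the 6 had the smallest p possible, 0.0286 (0.0429 adjusted over the 6 ratios). In these 4 the ages did not overlap, against 58.3% of the 374 ratios. miR-20a-5p and miR-92a-3p had exact p = 0.0571, raw and adjusted.

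**Figure D3:**
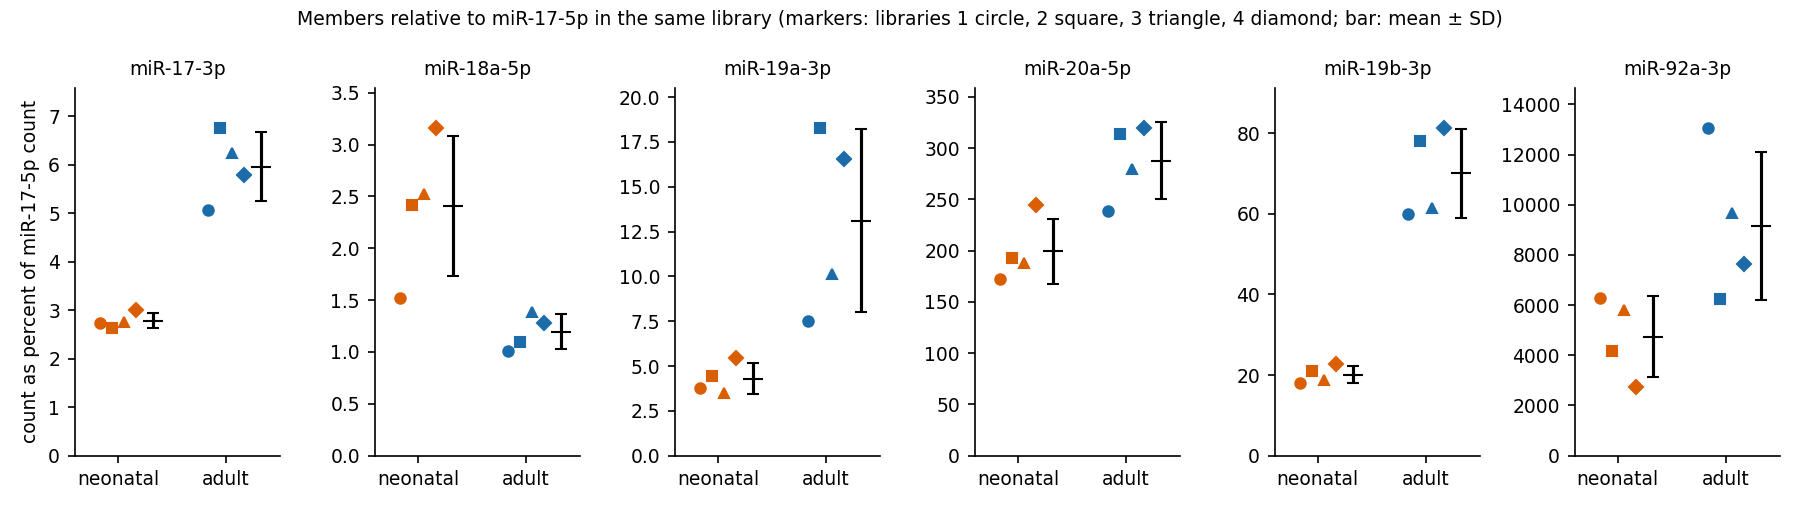
Count of each of the other 6 members as a percentage of the miR-17-5p count in the same library, each panel on its own linear axis from 0, with 1 point per library and the mean ± SD of 4 libraries. miR-19b-3p is at 18.0% to 22.7% in neonatal libraries, against 59.8% to 81.2% in adult libraries, and miR-18a-5p is the one member with higher ratios in neonatal libraries.

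The arms of the mir-17 hairpin moved apart. The 5p arm is the usual guide strand, and its count was 36.5, 38.0, 36.2 and 33.3 times the 3p count in neonatal libraries, against 19.7, 14.8, 16.0 and 17.3 times in adult libraries. The ages were separated by a wide gap. This is the inverse of the ratio of miR-17-3p to miR-17-5p counted above, which was 2.63% to 3.00% in neonatal libraries, against 5.06% to 6.75% in adult libraries. The log2 difference of the arm ratio was 1.09 ± 0.15 (SE; limma over 120 hairpins, adjusted p = 0.00105), where 45.8% of hairpins were called, 19.2% as higher and 26.7% as lower in neonatal libraries. In the mir-18a hairpin the 5p count was 22.4% to 94.2% of the 3p count in neonatal and 19.7% to 46.0% in adult libraries. The difference did not pass (0.48, 95% interval -0.50 to 1.46, limma's adjusted p = 0.437), and the value ran from 0.14 without neonatal library 4 to 0.82 without neonatal library 1.

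For the remaining hairpins the opposite arm was scarce. miR-92a-1-5p, made from the chromosome 14 hairpin alone, stood at 13.9 to 25.0 CPM in neonatal libraries, against 15.4 to 26.1 CPM in adult libraries (log2 fold change -0.24 ± 0.28, edgeR's adjusted p = 0.474). miR-92a-2-5p, from the chromosome X hairpin, stood at 23.2 to 40.0 CPM in neonatal libraries, against 24.6 to 46.6 CPM in adult libraries (-0.06 ± 0.25, edgeR's adjusted p = 0.833). The arm ratio of mir-92a-1 differed by 0.25 on the log2 scale (95% interval -0.59 to 1.09, limma's adjusted p = 0.644), and that of mir-92a-2 by 0.03 (95% interval -0.39 to 0.45, limma's adjusted p = 0.882). miR-20a-3p had 3 to 12 counts in neonatal and 1 to 9 in adult libraries, miR-19b-1-5p had 0 to 3 counts across neonatal and 0 to 2 across adult libraries, and miR-19a-5p and miR-19b-2-5p had 0 in every library. These 4 arms were not tested.

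The rows of the 2 shared mature miRNAs can be told apart only by bases outside the mature sequence. The windows below, from RefSeq (GRCm38.p6) and read 5′ to 3′ on the strand of the miRNA, hold the mature sequence with 6 bases on either side, and capitals mark where the precursors differ.
miR-19b-3p on mir-19b-1 (chr14:115044352-115044386, plus strand): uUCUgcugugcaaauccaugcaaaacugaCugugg
miR-19b-3p on mir-19b-2 (chrX:52741985-52742019, minus strand): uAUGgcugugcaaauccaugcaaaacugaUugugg
miR-92a-3p on mir-92a-1 (chr14:115044470-115044502, plus strand): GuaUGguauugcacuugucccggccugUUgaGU
miR-92a-3p on mir-92a-2 (chrX:52741848-52741880, minus strand): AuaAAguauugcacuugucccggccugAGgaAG
The precursors of miR-19b-3p are identical for 2 bases before the mature sequence and 0 after it, and those of miR-92a-3p for 1 base before and 0 after. A read that stays within the identical stretch fits both loci equally.

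The 2 rows of miR-19b-3p were almost equal in every library, the mir-19b-2 row being 0.989 to 1.01 times the mir-19b-1 row in neonatal and 0.994 to 1.002 times in adult libraries. Tested as separate rows they fell alike, by log2 fold changes of -1.03 ± 0.21 each (SE; edgeR's adjusted p = 0.0011 for mir-19b-1 and 0.00119 for mir-19b-2, among 433 rows tested). They carry no separate information on the chromosome 14 and chromosome X loci. The rows of miR-92a-3p were unequal. The mir-92a-2 row was 0.256, 0.229, 0.220 and 0.266 times the mir-92a-1 row in neonatal libraries, against 0.198, 0.180, 0.196 and 0.183 times in adult libraries. The ages did not overlap, and the mean log2 ratio was 0.36 higher in neonatal libraries. This comparison was added after the rows had been seen and is given as a description, without a test. Tested as separate rows, neither mir-92a-1 (-0.22 ± 0.22, edgeR's adjusted p = 0.384) nor mir-92a-2 (0.12 ± 0.22, edgeR's adjusted p = 0.618) passed. The fit of rows was scaled on its own rows, and miR-17-3p stood at -0.33 there, against -0.53 in the fit of sums.

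**Figure D4:**
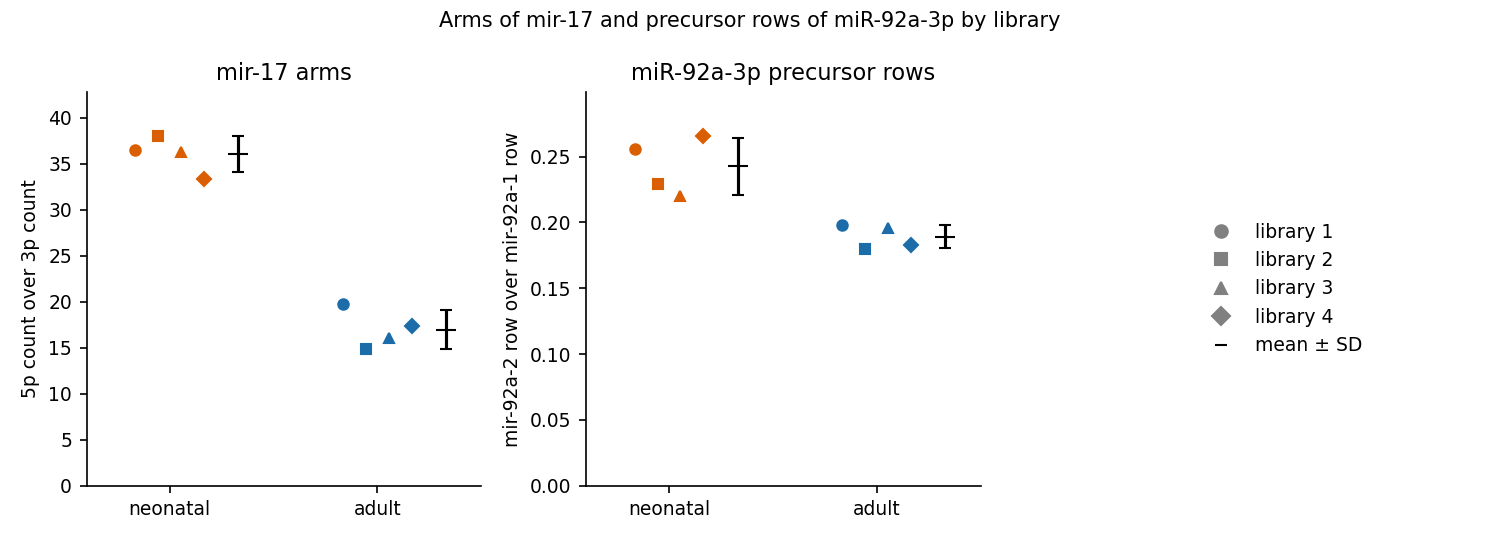
Ratio of the 5p to the 3p count of the mir-17 hairpin (left) and of the mir-92a-2 to the mir-92a-1 row of miR-92a-3p (right), on linear axes from 0, with 1 point per library and the mean ± SD of 4 libraries. The arm ratio is at 33.3 to 38.0 in neonatal libraries, against 14.8 to 19.7 in adult libraries, and the row ratio at 0.220 to 0.266 in neonatal libraries, against 0.180 to 0.198 in adult libraries.

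Paralogs with the same seeds were read from a list of 9 miRNAs, of which 4 rose and 1 fell, a called share near the 63.2% of all miRNAs tested. With the cluster's own members, the miR-17 seed was carried by 6 miRNAs, of which 3 rose and 0 fell, against 29.1% higher and 34.1% lower among all tested. Those that rose were miR-17-5p, miR-106a-5p (0.69 ± 0.16, edgeR's adjusted p = 0.00228) and miR-93-5p (0.66 ± 0.15, edgeR's adjusted p = 0.00157). miR-20b-5p (0.27 ± 0.17), miR-20a-5p and miR-106b-5p (-0.19 ± 0.24) did not pass. Beside miR-17-5p, miR-106a-5p was at 27.7% to 29.6% in neonatal libraries, against 25.4% to 28.6% in adult libraries. Their sequences differ by U10A alone. Deposited counts were whole numbers in 1 of the 8 libraries for each, in 2 for miR-20a-5p and in 0 for miR-20b-5p. Whether these miRNAs share reads was not tested. miR-93-5p was at 190% to 201% in neonatal libraries, against 180% to 190% in adult libraries. Neither of these ratios passed by limma (log2 differences 0.11 with a 95% interval from -0.12 to 0.35, and 0.09 with -0.12 to 0.29, adjusted p = 0.368 and 0.415). miR-106b-5p was at 16.7% to 25.1% in neonatal libraries, against 29.1% to 43.7% in adult libraries, and this ratio was lower (-0.78 ± 0.17 SE; limma's adjusted p = 0.00291).

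Both carriers of the miR-18 seed rose, miR-18b-5p by 2.36 ± 0.36 (SE; edgeR's adjusted p = 9.89e-05) from the chromosome X cluster. It stood at 29.9 to 75.1 CPM in neonatal libraries, against 5.71 to 16.1 CPM in adult libraries. miR-18b-5p differs from miR-18a-5p at A18U and A20U, so shorter reads of either fit both. Their deposited counts were whole numbers in 7 of the 8 libraries for each. Whether they share reads was not tested. Both carriers of the miR-19 seed fell. The 5 carriers of the miR-92 seed went apart: miR-363-3p rose (0.78 ± 0.16, edgeR's adjusted p = 0.00092), miR-32-5p fell (-1.24 ± 0.32, edgeR's adjusted p = 0.00393), and miR-92a-3p, miR-25-3p (0.16 ± 0.12) and miR-92b-3p (-0.36 ± 0.25) did not pass. With library totals, miR-20b-5p (0.90) and miR-25-3p (0.79) passed as higher, miR-32-5p (-0.62, edgeR's adjusted p = 0.0802) lost its call, and miR-106b-5p (0.43) and miR-92b-3p (0.28) turned above 0 without passing. miR-25-3p also passed as higher with RLE scaling (0.28, edgeR's adjusted p = 0.0397) and by DESeq2 (0.28, adjusted p = 0.00325). miR-92b-3p passed as lower once GC content was offset (-0.80, adjusted p = 0.00317 by edgeR), and also with the block added (-0.80, adjusted p = 0.00238 by edgeR).

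**Figure D5:**
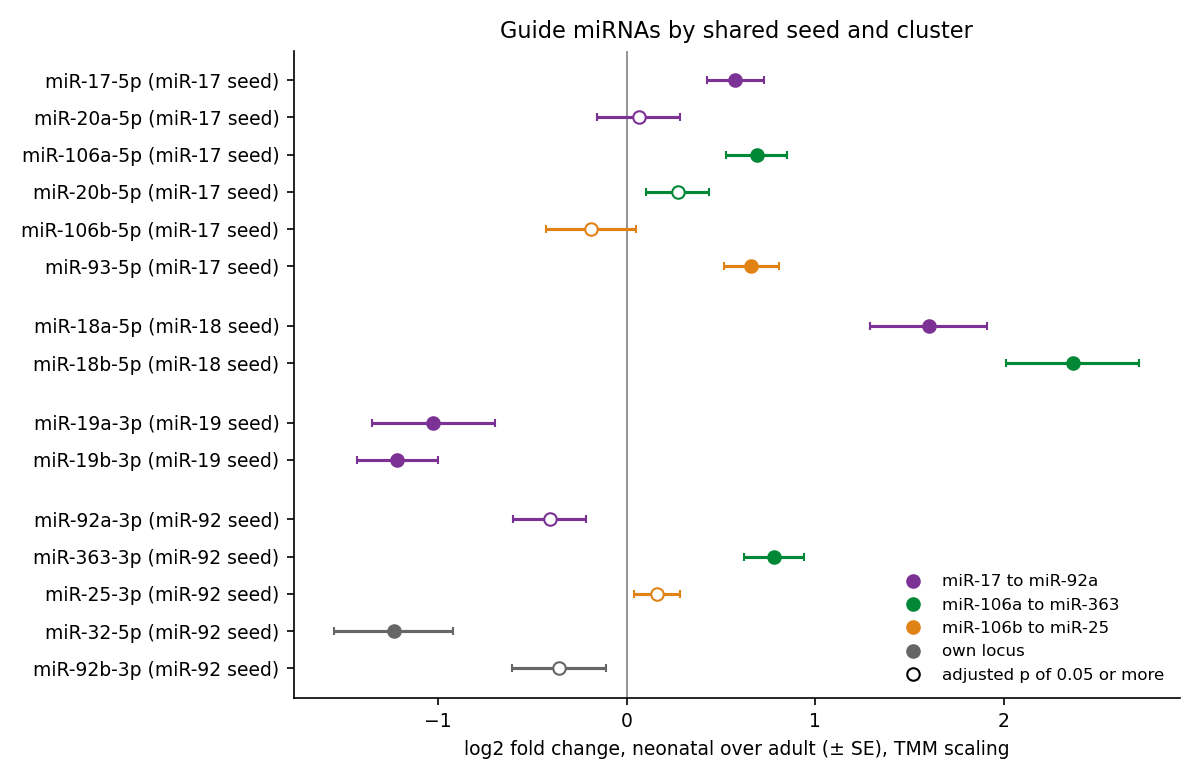
Log2 fold change of neonatal over adult (± SE, TMM scaling) of the cluster's guide miRNAs and their paralogs, grouped by seed and coloured by cluster, with open points for an adjusted p of 0.05 or more. Both miR-18 carriers lie above 0 (1.60 and 2.36) and both miR-19 carriers below it (-1.03 and -1.22), whereas the miR-92 carriers span -1.24 to 0.78.

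The 7 members together took 13.7%, 11.1%, 13.3% and 8.30% of all counts in neonatal libraries, against 12.4%, 7.14%, 10.4% and 8.81% in adult libraries. miR-92a-3p alone was 87.9% to 95.5% of that sum in neonatal and 92.4% to 96.9% in adult libraries. Without it, the other 6 took 0.623% to 1.01% in neonatal libraries, against 0.381% to 0.565% in adult libraries.

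Among 148 other miRNAs with a mean of at least 100 CPM, those most like each member were found from log2 CPM centred on its mean over the 8 libraries, by the root mean square difference. The closest to miR-17-5p were miR-148b-3p (0.12) and miR-185-5p (0.16). Those closest to miR-18a-5p were miR-450a-5p (0.26) and miR-181d-5p (0.33), and those closest to miR-19b-3p were miR-3068-5p (0.043) and miR-27a-3p (0.13). miR-19a-3p was closest to miR-30e-5p (0.17) and miR-140-5p (0.18), miR-20a-5p to miR-1839-5p (0.17) and miR-186-5p (0.19), miR-17-3p to miR-203-3p (0.12; also on the epithelial list below) and miR-24-3p (0.12), and miR-92a-3p to miR-423-5p (0.17) and miR-139-3p (0.19). Between members, miR-19a-3p and miR-19b-3p were the closest pair (0.28) and miR-18a-5p and miR-19b-3p the farthest apart (1.38).

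The label of CD8+ T cells could not be checked directly, since messenger RNAs such as Cd8a were not measured here. The lymphocyte miRNAs below were listed for T cells and other lymphocytes, so they do not tell CD8+ T cells from other lymphocytes. The 6 lymphocyte miRNAs of the marker list took 7.63% to 8.61% of counts in neonatal and 11.6% to 17.3% in adult libraries, led by miR-150-5p. The summed share of 5 erythroid miRNAs was 0.0356% to 0.0998% in neonatal libraries, against 0.00949% to 0.0202% in adult libraries. The 2 myeloid miRNAs took 0.000453% to 0.0011% in neonatal libraries, against 0.00023% to 0.000717% in adult libraries. Endothelial miRNAs took 0.0162% to 0.0185% in neonatal libraries, against 0.00375% to 0.00607% in adult libraries, and stromal ones 0.0133% to 0.0221% in neonatal libraries, against 0.00308% to 0.00669% in adult libraries. The epithelial list took 0.349% to 0.393% in neonatal libraries, against 0.31% to 0.36% in adult libraries. The liver miRNA miR-122-5p took 0.0863% to 0.205% in neonatal libraries, against 0.0193% to 0.0314% in adult libraries. No marker was at 0 in every library, and the part of these cells in the members' differences was not tested.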

How the data were processed

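Small RNA libraries were built with the NEBNext kit from bead-enriched splenic CD8+ T cells, per the labels' protocols. The deposited table holds an estimated count for each pair of mature miRNA and precursor, before any scaling. The genome build was mm10, per the submitters' processing notes. For aligner and counter, the sources used here give no name. Of the non-zero deposited counts, 71.4% were whole to within 0.001. Values were summed over precursors and rounded. The filter was filterByExpr with at least 10 counts and a total of at least 15, and the 375 miRNAs left went into edgeR 4.0.16 under R 4.3.3 (quasi-likelihood F test, TMM, robust dispersion, age as the only term, Benjamini-Hochberg at 0.05). An SE is the fold change divided by the root of F. Ratios to miR-17-5p (374) and arm ratios (120 hairpins), as log2 with 0.5 added to each count, were tested with limma 3.58.1 with a trend on abundance. The tests were checked on simulated counts.

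Alternatives were RLE scaling, library totals, filters, DESeq2 1.42.0, limma-voom, unrounded counts, separate precursor rows, a per-library offset for GC content of the mature sequence (found for 314 of 375, 83.7%), a replicate block, and leaving out each library. The labels number both groups 1 to 4. As a check, each library's deviation from its group mean was correlated with those of the libraries in the other group. Libraries of equal number gave r = 0.256 to 0.415 in 4 of 4 pairs, and unlike-numbered pairs -0.533 to 0.482. Neonatal libraries 1 and 2 correlated most with their own number (0.415 and 0.324). Neonatal libraries 3 and 4 correlated more with adult libraries 1 (0.397) and 2 (0.482) than with their own number (0.256 and 0.393). The check therefore does not show that equal numbers pair the samples, and calls with the replicate block rest on that assumption. No 2 libraries of a group were alike within sampling noise (chi-square of 15.8 to 363 per degree of freedom). The members and lists were chosen with earlier results of these data known. All members, the other arms of their hairpins and their paralogs are named, and the 2 most alike miRNAs at 100 CPM or more for each member.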

Additional observations from a re-analysis of the deposited data

Results flagged for a closer look

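Among 60 groups of 4 libraries checked for a library far from the rest, 1 stood out, where chance flags about 1 in 20 groups. In the mir-92a-1 hairpin the 5p count was 0.0503% of the 3p count in neonatal library 4, against 0.0175% to 0.0225% in the other neonatal libraries. Its gap to the nearest library was 0.847 of the range of the 4, above Dixon's critical value for groups of 4. The same library had the lowest miR-92a-3p level of the neonatal group, at 63010 CPM.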

How the results depend on the processing

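miR-17-5p, miR-18a-5p and miR-19b-3p kept their direction under every alternative run, at log2 fold changes of 0.47 to 1.20, 1.28 to 2.21 and -1.38 to -0.60. So did the mir-17 arm ratio (1.03 to 1.17) and the ratios of miR-17-3p, miR-19a-3p and miR-19b-3p to miR-17-5p. All of them also kept their call, leaving aside libraries 1 and 3 or 2 and 4 alone, from which no call is read. Library totals gave 186 miRNAs higher and 68 lower, in place of 109 and 128. They turned miR-17-3p to 0.10, miR-92a-3p to 0.23, miR-92a-1-5p to 0.38, miR-92a-2-5p to 0.58, miR-106b-5p to 0.43 and miR-92b-3p to 0.28, ended the call of miR-19a-3p (-0.41) and called miR-20a-5p (0.68). miR-17-3p lost its call with RLE scaling (-0.42), no filter (-0.45), DESeq2 (-0.42) and separate rows (-0.33). It stood at -0.49 in libraries 1 and 3 alone and at -0.49 in 2 and 4 alone. miR-92a-3p was called with the replicate block (-0.40), the GC offset (-0.74), and both (-0.75). It stood at -0.33 in libraries 1 and 3 and -0.37 in 2 and 4 alone, splits chosen after seeing the data from which no call is read, and its mir-92a-2 row at 0.12. The GC offset ended the call of miR-19a-3p (-0.58). With the block added, miR-19a-3p was called again (-0.54) and miR-20a-5p was called (0.35). The replicate block changed no other call of a member. Values near 0 turned for miR-92a-2-5p with RLE (0.071), no filter (0.0496), DESeq2 (0.0704) and libraries 1 and 3 (0.13), for miR-25-3p with the GC offset (-0.0013, and -0.000301 with the block), and for the mir-92a-2 arm ratio with 5 added to counts (-0.0045) and in libraries 2 and 4 (-0.15). By exact test the ratios of miR-20a-5p (-0.53) and miR-92a-3p (-0.96) did not pass. In libraries 1 and 3 alone the ratio of miR-18a-5p stood at 0.70. There limma put 22 arm ratios under the threshold, 12 higher and 10 lower. That split was chosen after the levels had been seen, so these counts are given as a description and no result is read from them. The causes were not tested. With 1 library left out in turn, miR-17-3p ran from -0.67 to -0.41, miR-19a-3p from -1.3 to -0.80, miR-20a-5p from -0.11 to 0.23, miR-92a-3p from -0.47 to -0.18, miR-92a-2-5p from -0.15 to 0.18, the arm ratios of mir-18a from 0.14 to 0.82, mir-92a-1 from -0.0737 to 0.429 and mir-92a-2 from -0.0633 to 0.176, and the count of lower arm ratios from 20 (without adult library 2) to 32. Depth limits miR-18a-5p, with 12 to 37 counts in adult libraries, and the scarce opposite arms.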
